A study of Homo sapiens with 12 samples.

Results

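The D-type cyclins *CCND1*, *CCND2* and *CCND3*, the E-type cyclins *CCNE1* and *CCNE2*, and the kinases that they switch on, *CDK4*, *CDK6* and *CDK2*, were followed by RNA-seq in ZR-75-1 cells, an established oestrogen receptor-positive human breast cancer line. These 8 genes were taken by symbol from the 60612 genes of the count table. The 12 libraries formed 4 groups of 3 biological replicates. Cells that had received a non-targeting guide (sgControl) and cells in which *RB1* had been knocked out were each kept for 5 days in the solvent DMSO or in 500 nM abemaciclib, a drug that blocks the kinases encoded by *CDK4* and *CDK6*. The knockout had been made with Cas9 protein and a guide against *RB1*, followed by sorting of single cells and expansion of clones. How many clones went into these libraries is not given in the sources used here, so the loss of *RB1* and the choice of clone cannot be told apart in any comparison between the genotypes. Nothing in the labels says more about how the biological replicates were separated, so the p-values measure the spread between these cultures.

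A cyclin is the regulatory partner that a cyclin-dependent kinase needs to be active. In the standard account of the cell cycle, growth signals raise the D-type cyclins, which bind *CDK4* or *CDK6* and begin to phosphorylate the retinoblastoma protein Rb, the product of *RB1*. Phosphorylated Rb releases E2F transcription factors, whose targets include the E-type cyclins, and these bind *CDK2*, complete the phosphorylation of Rb and carry the cell from G1 into S phase. In luminal breast cancer, *CCND1* is a well known target of the oestrogen receptor and is often amplified, and inhibitors of *CDK4* and *CDK6* are used together with endocrine therapy.

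The libraries held between 39907318 and 81636393 counts. Normalized counts of *RB1*, the targeted gene, lay between 4153.7 and 4824.6 in untreated sgControl libraries and between 2252.3 and 2488.6 in treated ones, against 39.6 to 63.5 in the 6 knockout libraries, so that it matched the labels in every library. All 8 markers of luminal breast epithelium were present, with mean normalized counts from 9777.1 to 333813.7, whereas 6 of 8 markers of fibroblasts, endothelium and leukocytes had means under 10. Of the other 2, *COL1A1* averaged 2424.9 and *PDGFRB* 10.3, and *CD3E* was at 0 in every library. Their sum, nearly all *COL1A1*, lay between 2115.0 and 2410.8 in untreated and 2801.3 and 3039.3 in treated sgControl libraries, and between 1896.3 and 2062.5 and 2576.2 and 2677.5 in the knockout. Mitochondrial transcripts took up 2.82% to 3.99% of each library in sgControl cells without the drug, 7.22% to 8.53% in sgControl cells with it, 3.78% to 4.13% in the knockout in DMSO and 5.44% to 7.39% in the knockout in abemaciclib. The part of either measure in the results was not tested.

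Abemaciclib changed 6 of the 7 tested members in sgControl cells and 3 of the 7 in the knockout. In sgControl cells *CCNE2*, *CDK2*, *CDK6*, *CCNE1* and *CCND3* fell and *CCND1* rose, and *CDK4* did not pass the test. In the knockout *CDK4*, *CCNE1* and *CDK2* rose, none fell and the other 4 tested genes did not pass. The difference between the responses passed the test for all 7 tested genes. *CCND2* had no count in any library and entered no test.

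These counts were read against the background of all genes tested, with a call at a DESeq2 adjusted p under 0.05. In the sgControl response 49.8% of 22723 genes were called, 25.0% higher and 24.8% lower, beside 1 of 7 members higher and 5 of 7 lower, and the median log2 fold change was -0.96 over the 7 members and 0.01 over all genes. When libraries were scaled by their total counts instead, 4532 genes were called higher and 6779 lower in that response, in place of 5675 and 5630. In the knockout response 30.0% of 18546 genes were called, 14.9% higher and 15.1% lower, beside 3 of 7 members higher and 0 lower, with medians of 0.14 over the members and 0.02 over all genes. For the difference between the responses, fitted as an interaction, 41.4% of 20932 genes were called, 21.1% higher and 20.3% lower (4417 and 4251 genes, or 5467 and 3098 with total-count scaling), beside 6 of 7 members higher and 1 lower. Here "higher" means a more positive response in the knockout. The median interaction was 1.21 over the members and 0.03 over all genes. Between the genotypes in DMSO 37.4% of 16755 genes were called, 19.2% higher and 18.2% lower in the knockout, beside 4 of 7 members higher and 1 lower, with medians of 0.23 and -0.01. Between the genotypes in abemaciclib 55.9% of 21529 genes were called, 28.5% higher and 27.4% lower in the knockout, beside 6 of 7 members higher and 1 lower, with medians of 1.47 and 0.02. The share of members called therefore stood against a background in which up to 55.9% of all genes were called, and the comparisons share groups of libraries, so they are not independent of each other.

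**Figure D1:**
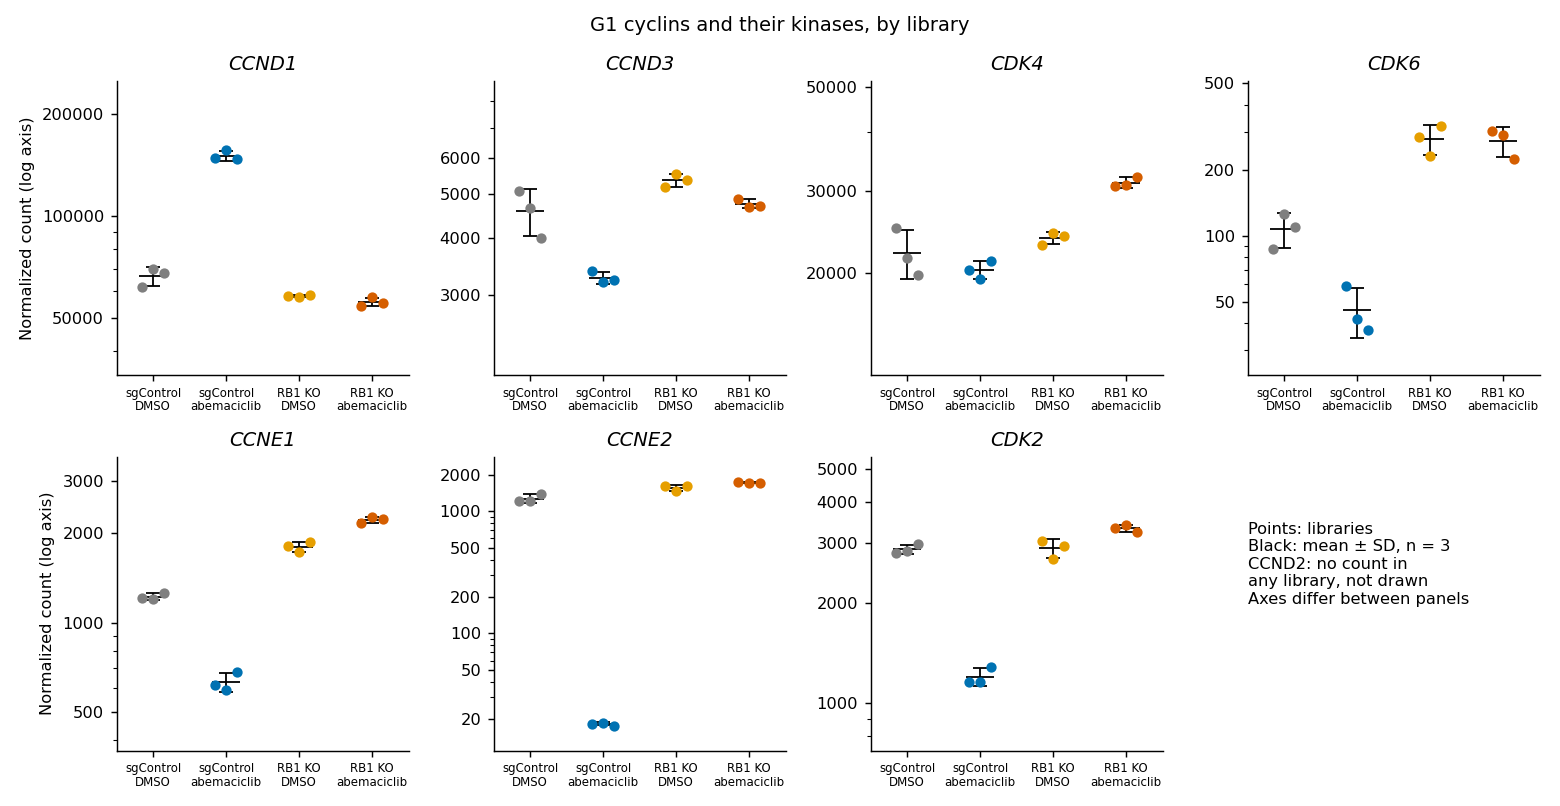
Normalized counts of the 7 detected genes in each of the 12 libraries, by group, on log axes that differ between panels. Coloured points are libraries, and black bars give the mean ± SD of 3 replicates. *CCNE2* in sgControl cells in abemaciclib sits between 17.6 and 18.6, against 1209.2 or more in every other library, while *CCND1* reaches 147613.6 or more in the same 3 libraries.

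Levels of different genes were compared per kilobase of exon, as normalized counts divided by the length of the union of a gene's exons. In sgControl cells in DMSO *CCND1* was highest at 14000 ± 891 per kb (SD, n = 3), followed by *CDK4* at 7160 ± 861. *CCND3* at 797 ± 93.9 and *CDK2* at 742 ± 23.5 overlapped between libraries, and *CCNE1* at 497 ± 13.5, *CCNE2* at 289 ± 23.4 and *CDK6* at 8.82 ± 1.58 followed without overlap. *CCND1* and *CDK4* messages thus stood above those of their paralogues. In sgControl cells in abemaciclib the order of the upper 5 was the same, with *CCND1* at 31700 ± 1070, *CDK4* at 6570 ± 295, *CCND3* at 568 ± 16.3, *CDK2* at 309 ± 18.6 and *CCNE1* at 256 ± 19.3. *CCNE2* at 4.13 ± 0.115 and *CDK6* at 3.76 ± 0.96 then overlapped at the bottom. In the knockout in DMSO *CDK2* at 747 ± 47.5 and *CCNE1* at 732 ± 28.0 overlapped, below *CCND3* at 931 ± 31.7. In the knockout in abemaciclib *CCNE1*, at 903 ± 21.8, lay above *CDK2* at 856 ± 21.1 and *CCND3* at 827 ± 18.4, which overlapped each other. These levels assume reads spread over the whole transcript, as with the directional kit named in the labels. The study's methods describe a kit that reads the 3′ end, with which counts would not scale with length. The order also depends on the length chosen. The longest transcript has 2394 bases in place of 5761 for *CCND3*, 2598 in place of 3887 for *CDK2* and 1954 in place of 2461 for *CCNE1*. With those lengths *CCNE1* in the treated knockout would lie below both *CDK2* and *CCND3*.

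Among the D-type cyclins, *CCND1* rose with abemaciclib in sgControl cells and not in the knockout. *CCND1* lies at chr11:69641156-69654474 on the plus strand (GRCh38) and encodes cyclin D1. Its normalized counts were 61816.2, 69888.7 and 68111.5 in sgControl replicates 1 to 3 in DMSO, and 148658.3, 156885.8 and 147613.6 in abemaciclib. In the knockout they were 58099.7, 57595.9 and 58693.3 in DMSO and 54387.9, 57689.5 and 55529.5 in abemaciclib. The 3 sgControl libraries in abemaciclib stood above the other 9, and the 2 knockout groups overlapped. The sgControl response was 2.27-fold, a log2 fold change of 1.18 ± 0.05 (SE; DESeq2 adjusted p = 3.53e-105), and ranked 3124 from the highest of 22723 genes. The knockout response was -0.06 ± 0.05 (DESeq2 adjusted p = 0.475), with a 95% interval from -0.16 to 0.05. The responses differed by -1.24 ± 0.08 (DESeq2 adjusted p = 1.13e-57). *CCND1* was also 1.15-fold lower in the knockout than in sgControl cells in DMSO (log2 fold change -0.20 ± 0.05, DESeq2 adjusted p = 0.00127) and 2.7-fold lower in abemaciclib (-1.43 ± 0.05, DESeq2 adjusted p = 1.15e-154). This 1 gene took 0.107% to 0.132% of all counts in untreated sgControl cells and 0.24% to 0.269% in abemaciclib, and ranked between 25 and 110 among all genes in every library.

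*CCND3*, on the minus strand at chr6:41934934-42050357, encodes cyclin D3 and moved the other way from *CCND1* in sgControl cells. Its normalized counts in sgControl cells were 5089.2, 4666.8 and 4015.3 in DMSO and 3381.7, 3206.7 and 3233.9 in abemaciclib, and in the knockout 5173.9, 5537.5 and 5383.9 in DMSO and 4888.9, 4694.9 and 4717.6 in abemaciclib. All 3 sgControl libraries in abemaciclib lay below the other 9. *CCND3* fell 1.40-fold in sgControl cells (log2 fold change -0.49 ± 0.08, DESeq2 adjusted p = 1.45e-09). In the knockout its value was -0.17 ± 0.08 (DESeq2 adjusted p = 0.0807), although the groups did not overlap. This response passed the test in the fit on the 2 knockout groups alone (-0.18, DESeq2 adjusted p = 0.000393), with TMM or total-count scaling (0.0349 and 0.00952), and without sgControl replicate 1 or 3 in DMSO (0.00977 and 0.00794). The responses differed by 0.32 ± 0.11 (DESeq2 adjusted p = 0.0111). Between genotypes *CCND3* was 1.17-fold higher in the knockout in DMSO (0.23 ± 0.08, DESeq2 adjusted p = 0.0115) and 1.46-fold higher in abemaciclib (0.54 ± 0.08, DESeq2 adjusted p = 1.25e-11). The call in DMSO was lost without sgControl replicate 3 in DMSO (DESeq2 adjusted p = 0.0693), knockout replicate 2 in DMSO (0.0842) or knockout replicate 3 in DMSO (0.0512), and in the fit on those 2 groups alone (0.0735).

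*CCND2*, which encodes cyclin D2 and lies at chr12:4269771-4305353 on the plus strand, had a count of 0 in all 12 libraries. The totals of the 4 groups lay between 139359821 and 205442934 counts, of which a count of 0 allows up to 3, a limit that covers counting error only. *CCND1* thus made up most D-type cyclin message. Its share of counts per kb was 94.6% ± 0.88 (SD, n = 3) in untreated sgControl cells and 98.2% ± 0.09 in abemaciclib, and 92.9% ± 0.26 and 93.4% ± 0.31 in the knockout. By the length of the longest transcript, in the same order of groups, the shares were 89.1%, 96.3%, 86.0% and 86.9%. Without any length they were 93.5%, 97.9%, 91.5% and 92.1%. The 3 sgControl libraries in abemaciclib, at 98.15% to 98.34% by exon union, lay above the other 9. With 3 libraries against 3, an exact permutation test of such a share cannot go below a two-sided p of 0.1, so the shares and ratios here are given as descriptions.

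*CDK4*, the more abundant message of the pair of kinases that bind D-type cyclins, rose with abemaciclib in the knockout. The gene lies on the minus strand at chr12:57747727-57756013. One transcript starts at the far end of that span, and the RefSeq promoter lies inside the gene. The stretch of this promoter that overlaps no annotated exon, chr12:57752448-57752560 on the minus strand (RefSeq, GRCh38.p14), is shown here because it holds the 6 letters CACGTG, the E-box recognised by MYC and related factors, in 2 places, printed in capitals.
CDK4 promoter stretch: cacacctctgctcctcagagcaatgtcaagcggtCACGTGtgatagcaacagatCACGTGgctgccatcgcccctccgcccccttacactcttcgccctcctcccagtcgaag
The E-box was found 3 times in the 250 bases before this start of *CDK4*, at 216 to 211, 196 to 191 and 101 to 96 bases upstream, while 6.345% of 35116 promoters held at least 1 on either strand. E-boxes and the E2F core below were looked for after the promoters had been read.

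Normalized counts of *CDK4* were 25055.1, 21530.9 and 19832.9 in untreated sgControl cells and 20296.7, 19431.5 and 21257.6 in abemaciclib, and these groups overlapped. In the knockout they were 23039.9, 24442.7 and 24042.3 in DMSO and 30693.3, 30832.1 and 32180.7 in abemaciclib, where all 3 libraries stood above the other 9. The sgControl response was -0.12 ± 0.08 (DESeq2 adjusted p = 0.182), with a 95% interval from -0.27 to 0.03. *CDK4* rose 1.31-fold in the knockout (log2 fold change 0.39 ± 0.08, DESeq2 adjusted p = 4.54e-06), and the responses differed by 0.51 ± 0.11 (DESeq2 adjusted p = 1.12e-05). Between genotypes the value was 0.11 ± 0.08 in DMSO (DESeq2 adjusted p = 0.283; interval -0.04 to 0.26) and 0.62 ± 0.08 in abemaciclib, 1.54-fold higher in the knockout (DESeq2 adjusted p = 3.35e-15). The 2 comparisons that *CDK4* did not pass depended on single libraries of the sgControl group in DMSO or on the scaling. Without replicate 3 of that group *CDK4* passed as lower in the sgControl response (-0.20, DESeq2 adjusted p = 0.00948), as it did with total-count scaling (-0.25, DESeq2 adjusted p = 0.000143). Without replicate 1 it passed as higher in the knockout in DMSO (0.20, DESeq2 adjusted p = 0.000504).

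*CDK6*, the paralogue of *CDK4*, was near the bottom of the range and, of the members, differed most between the genotypes in DMSO. It lies on the minus strand at chr7:92604921-92836573. Normalized counts were 87.5, 126.0 and 110.2 in untreated sgControl cells and 59.3, 41.6 and 37.0 in abemaciclib, from 42 to 175 raw counts per library. In the knockout they were 282.8, 233.6 and 320.6 in DMSO and 302.4, 290.6 and 224.9 in abemaciclib. Every knockout library lay above every sgControl library, and the 2 knockout groups overlapped. *CDK6* fell 2.37-fold in sgControl cells (log2 fold change -1.25 ± 0.22, DESeq2 adjusted p = 6.05e-08), while the knockout response was -0.03 ± 0.19 (DESeq2 adjusted p = 0.925; interval -0.40 to 0.33). The responses differed by 1.21 ± 0.29 (DESeq2 adjusted p = 0.000108). The knockout had 2.58-fold more *CDK6* in DMSO (1.37 ± 0.19, DESeq2 adjusted p = 2.35e-11), rank 521 from the highest of 16755 genes, and 5.98-fold more in abemaciclib (2.58 ± 0.21, DESeq2 adjusted p = 2.34e-32). Even so, *CDK4* accounted for 99.87% ± 0.03 (SD, n = 3) of *CDK4* and *CDK6* counts per kb in sgControl cells in DMSO, 99.94% ± 0.02 in abemaciclib, and 99.70% ± 0.05 and 99.78% ± 0.04 in the knockout.

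**Figure D2:**
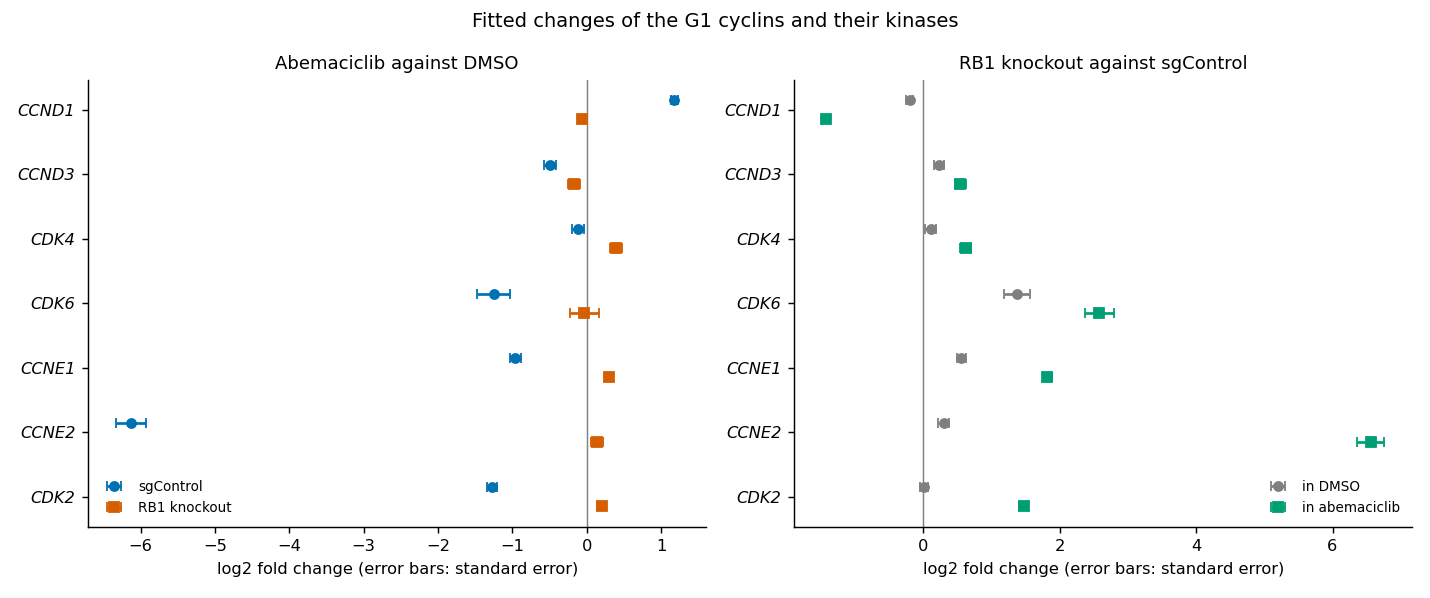
Fitted log2 fold changes with standard errors from DESeq2. The left panel gives abemaciclib against DMSO in sgControl cells (blue circles) and the knockout (orange squares), and the right panel the knockout against sgControl in DMSO (grey circles) and abemaciclib (green squares). *CCNE2* runs from -6.13 in sgControl cells to 0.14 in the knockout, and *CCND1* is the one gene that is lower in the knockout in both media.

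The E-type cyclins fell together in sgControl cells, but by very different amounts. *CCNE1*, which encodes cyclin E1, lies at chr19:29811991-29824312 on the plus strand. The 250 bases before the start of *CCNE1*, chr19:29811741-29811990 on the plus strand (RefSeq, GRCh38.p14), are shown because they hold the core letters of E2F sites, TCCCGC or its reverse complement, in 3 places, printed in capitals.
CCNE1 promoter: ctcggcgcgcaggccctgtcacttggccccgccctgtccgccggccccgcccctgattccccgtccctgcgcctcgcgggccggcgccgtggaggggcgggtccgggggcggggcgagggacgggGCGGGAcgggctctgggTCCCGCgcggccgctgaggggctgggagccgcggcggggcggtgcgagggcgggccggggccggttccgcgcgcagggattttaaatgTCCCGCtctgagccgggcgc
These matches lay 125 to 120, 108 to 103 and 20 to 15 bases upstream of the start, and 23.485% of 35116 promoters held at least 1. The longer E2F letters TTTCCCGC, TTTGGCGC, TTTCGCGC and TTTGCCGC, the CHR letters TTTGAA and TTCGAA, and the palindromic oestrogen response element were not in the 250 bases of any of the 7 promoter windows given for *CCND3*, *CDK4*, *CDK6* and *CCNE1*, against 2.788%, 14.335% and 0.04% of all promoters. One of the 3 *CCND3* windows held the E2F core once. Promoters of the other 4 members were not used here.

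Normalized counts of *CCNE1* were 1209.2, 1199.5 and 1261.2 in untreated sgControl cells and 616.4, 591.6 and 683.6 in abemaciclib. In the knockout they were 1811.6, 1727.6 and 1864.4 in DMSO and 2163.0, 2267.9 and 2235.2 in abemaciclib. No 2 of the 4 groups overlapped, and the order ran from treated sgControl cells up to the treated knockout. *CCNE1* fell 1.94-fold in sgControl cells (log2 fold change -0.96 ± 0.07, DESeq2 adjusted p = 2.89e-41) and rose 1.23-fold in the knockout (0.30 ± 0.06, DESeq2 adjusted p = 2.91e-05), a difference of 1.26 ± 0.10 (DESeq2 adjusted p = 2.88e-38). It was 1.47-fold higher in the knockout in DMSO (0.56 ± 0.07, DESeq2 adjusted p = 7.8e-16) and 3.52-fold higher in abemaciclib (1.82 ± 0.07, DESeq2 adjusted p = 1.86e-150).

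*CCNE2*, the cyclin E2 gene at chr8:94879770-94896678 on the minus strand, gave the widest swing of the members. Its normalized counts were 1209.2, 1211.9 and 1388.4 in untreated sgControl cells and 18.3, 18.6 and 17.6 in abemaciclib, which came from 17, 21 and 20 raw counts. In the knockout they were 1614.9, 1458.7 and 1614.3 in DMSO and 1747.4, 1702.5 and 1699.6 in abemaciclib. The treated sgControl libraries were far below the other 9, which all held over 1200. *CCNE2* fell 70.0-fold in sgControl cells, a log2 fold change of -6.13 ± 0.20 (DESeq2 adjusted p = 9.09e-196) that ranked 29 from the lowest of 22723 genes. The knockout response was 0.14 ± 0.08 (DESeq2 adjusted p = 0.2; interval -0.02 to 0.29), although all 3 treated knockout libraries lay above the untreated ones. The responses differed by 6.27 ± 0.22 (DESeq2 adjusted p = 3.22e-177), rank 48 from the highest of 20932. In DMSO *CCNE2* was 1.23-fold higher in the knockout (0.30 ± 0.08, DESeq2 adjusted p = 0.000971), and in abemaciclib 94.5-fold higher (6.56 ± 0.20, DESeq2 adjusted p = 1.85e-224). In bulk RNA, fewer cells in a phase of the cycle that uses a gene and less RNA of it per cell cannot be told apart.

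*CDK2*, the kinase partner of the E-type cyclins, fell with them in sgControl cells. Between the genotypes in DMSO both E-type cyclins passed as higher in the knockout, and *CDK2* did not pass. *CDK2* lies at chr12:55966781-55972789 on the plus strand. Normalized counts were 2818.8, 2847.7 and 2989.1 in untreated sgControl cells and 1157.4, 1157.5 and 1282.6 in abemaciclib, and in the knockout 3061.7, 2700.4 and 2948.9 in DMSO and 3344.2, 3401.9 and 3239.9 in abemaciclib. The treated sgControl libraries were the lowest 3 and the treated knockout libraries the highest 3, while the DMSO groups overlapped. *CDK2* fell 2.41-fold in sgControl cells (log2 fold change -1.27 ± 0.07, DESeq2 adjusted p = 2.88e-79) and rose 1.15-fold in the knockout (0.20 ± 0.06, DESeq2 adjusted p = 0.0104), a difference of 1.46 ± 0.09 (DESeq2 adjusted p = 2.54e-54). The knockout call was lost without its replicate 2 in DMSO (0.15, DESeq2 adjusted p = 0.099), without its replicate 2 in abemaciclib (0.18, DESeq2 adjusted p = 0.0685) and with total-count scaling (0.20, DESeq2 adjusted p = 0.0694). Between genotypes the value was 0.01 ± 0.06 in DMSO (DESeq2 adjusted p = 0.94; interval -0.12 to 0.13) and 1.47 ± 0.07 in abemaciclib, 2.77-fold higher in the knockout (DESeq2 adjusted p = 3.07e-106).

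The balance within the families shifted with the drug in sgControl cells, and by some measures in the knockout. *CCNE1* made up 63.3% ± 1.23 (SD, n = 3) of E-type cyclin counts per kb in untreated sgControl cells and 98.4% ± 0.16 in abemaciclib, against 67.3% ± 0.60 and 69.8% ± 0.83 in the knockout. The knockout groups did not overlap, at 66.71% to 67.91% in DMSO and 68.86% to 70.41% in abemaciclib. Without any length its share was 49.1% and 97.2% in sgControl cells, against 53.6% and 56.4% in the knockout. The lead of *CCNE1* over *CCNE2* in untreated sgControl cells therefore depended on the division by length. Counts per kb of the E-type cyclins together were 785.9 ± 36.7 untreated and 260.3 ± 19.2 treated in sgControl cells, and 1087.3 ± 47.6 and 1293.3 ± 16.3 in the knockout. Treated sgControl cells thus held less E-type message, nearly all of it *CCNE1*. The D-type cyclins together went from 14786.6 ± 832.5 to 32295.4 ± 1058.1 per kb in sgControl cells, and were 13140.8 ± 107.5 and 12562.2 ± 337.1 in the knockout.

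Set against their kinases, the D-type cyclins stood at 2.09 ± 0.333 counts per kb for each count per kb of *CDK4* and *CDK6* in sgControl cells in DMSO, and at 4.92 ± 0.376 in abemaciclib. In the knockout this ratio was 1.70 ± 0.0525 in DMSO and 1.24 ± 0.0488 in abemaciclib. Neither pair of groups overlapped, so the ratio was higher with the drug in sgControl cells and lower with it in the knockout. The ratio of E-type cyclins to *CDK2* was 1.06 ± 0.0178 in untreated sgControl cells and 0.844 ± 0.0191 in abemaciclib, and 1.46 ± 0.0488 and 1.51 ± 0.0374 in the knockout, where the groups overlapped. D-type cyclins exceeded E-type cyclins 18.8 ± 1.27 times per kb in sgControl cells in DMSO, 125 ± 12.5 times in abemaciclib, and 12.1 ± 0.463 and 9.71 ± 0.147 times in the knockout. Here the knockout groups did not overlap, at 11.8 to 12.6 in DMSO and 9.62 to 9.88 in abemaciclib. Without any length, and in the same order of groups, the ratio of D-type cyclins to *CDK4* and *CDK6* was 3.24, 7.59, 2.63 and 1.93. That of E-type cyclins to *CDK2* was then 0.864, 0.541, 1.16 and 1.18, so that it was below 1 in untreated sgControl cells, and that of D-type to E-type cyclins was 28.6, 239, 18.9 and 15.4. By the length of the longest transcript, the ratio of D-type cyclins to *CDK4* and *CDK6* was 1.5, 3.4, 1.25 and 0.905, below 1 in the treated knockout. That of E-type cyclins to *CDK2* was 0.907, 0.711, 1.25 and 1.29, and that of D-type to E-type cyclins 17.5, 113, 11.5 and 9.18. Which side of a cyclin to kinase ratio was larger thus depended on the length. These are ratios of messages, and the proteins were not measured here.

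**Figure D3:**
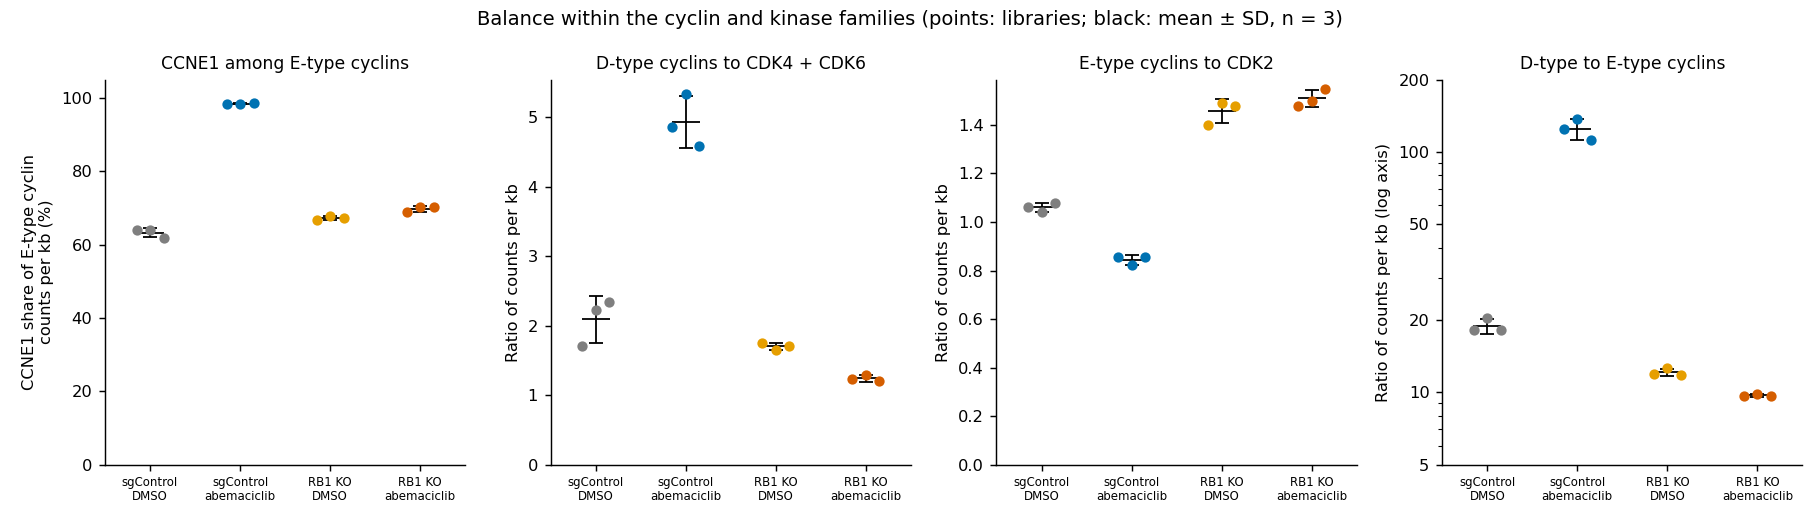
Balance of the families in each library, from counts per kb of exon. The panels give, from left, the *CCNE1* share of E-type cyclins in percent, the ratio of D-type cyclins to *CDK4* plus *CDK6*, the ratio of E-type cyclins to *CDK2*, and the ratio of D-type to E-type cyclins on a log axis. Points are libraries and black bars the mean ± SD of 3. Treated sgControl cells stand apart in every panel, with a *CCNE1* share of 98.27% to 98.58%.

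Lists of genes around the members were read against the same background. Of all genes tested, 24.8% were called lower and 25.0% higher in the sgControl response. In the knockout response 15.1% were called lower and 14.9% higher. Most inhibitors of the kinases among the members fell with the drug in sgControl cells as well. Of 7 CDK inhibitor genes 6 fell, none rose and 1 did not pass, with a median log2 fold change of -2.26. *CDKN2A*, which encodes p16 and binds the *CDK4* and *CDK6* products, fell 8.76-fold (-3.13 ± 0.10, DESeq2 adjusted p = 7.11e-212), and *CDKN2C*, the p18 gene of the same family, fell 8.03-fold (-3.01 ± 0.07). In the knockout 2 of the 7 fell, 1 rose and 4 did not pass. *CDKN1A*, the p21 gene, fell 1.27-fold there (-0.35 ± 0.06, DESeq2 adjusted p = 2.95e-07), and *CDKN2C* rose 1.31-fold (0.39 ± 0.06, DESeq2 adjusted p = 3.68e-08). The fall of *CDKN1A* was larger in sgControl cells, at 4.33-fold (-2.12 ± 0.06, DESeq2 adjusted p = 1.15e-248). Its responses differed by 1.77 ± 0.09 (DESeq2 adjusted p = 3.08e-88).

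Of the 3 pocket protein genes, the family of Rb, 2 fell and 1 rose in sgControl cells. *RBL1*, which encodes p107, fell 5.29-fold (-2.40 ± 0.12, DESeq2 adjusted p = 2.78e-84) and *RB1* itself fell 1.93-fold (-0.95 ± 0.08, DESeq2 adjusted p = 3.53e-29). In the knockout 1 of the 3 fell, again *RBL1*, by 1.26-fold (-0.33 ± 0.12, DESeq2 adjusted p = 0.0175). Among 10 E2F and DP genes 7 fell, 2 rose and 1 did not pass in sgControl cells. The atypical repressors fell furthest on this list, *E2F7* by 71.1-fold (-6.15 ± 0.26, DESeq2 adjusted p = 6.12e-119) and *E2F8* 35.2-fold (-5.14 ± 0.16, DESeq2 adjusted p = 1.22e-211). In the knockout 2 of the 10 fell, 3 rose and 5 did not pass, with *E2F2*, an activator E2F, and *E2F8* both falling 1.31-fold (-0.39 ± 0.06 and -0.39 ± 0.09, DESeq2 adjusted p = 9.44e-10 and 0.000133). In sgControl cells *E2F2* fell 17.9-fold (-4.16 ± 0.08).

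Cyclins and a kinase that act after the E-type cyclins fell with the drug too. Of 7 S and G2 phase genes 6 fell in sgControl cells and 1 did not pass, with a median of -2.34 beside -0.96 for the members. *CCNA2*, cyclin A2, fell 33.9-fold (-5.08 ± 0.07) and *CDK1*, the mitotic kinase, 15.0-fold (-3.90 ± 0.07). In the knockout 3 of 7 fell and 4 did not pass, and the changes were small. There *CCNA2* fell 1.22-fold (-0.29 ± 0.05, DESeq2 adjusted p = 2.09e-08) and *CCNF*, cyclin F, 1.20-fold (-0.27 ± 0.06, DESeq2 adjusted p = 1.83e-05). In sgControl cells *CCNF* fell 4.51-fold (-2.17 ± 0.06). Among 8 genes for the CDK activating kinase, the activating CDC25 phosphatases and the inhibitory kinases, 7 fell and 1 rose in sgControl cells. *CDC25A* fell 5.02-fold (-2.33 ± 0.08, DESeq2 adjusted p = 2.78e-181) and *CDC25B* 4.93-fold (-2.30 ± 0.05). In the knockout 2 fell and 6 did not pass, *CDC25A* falling 1.45-fold (-0.54 ± 0.07, DESeq2 adjusted p = 7.1e-12) and *PKMYT1*, an inhibitory kinase, 1.34-fold (-0.42 ± 0.07, DESeq2 adjusted p = 4.03e-08). In sgControl cells *PKMYT1* fell 3.17-fold (-1.67 ± 0.07, DESeq2 adjusted p = 1.64e-122).

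Genes for the turnover of cyclins were mixed. Of 12, 7 fell, 4 rose and 1 did not pass in sgControl cells, where *CKS2* fell 1.91-fold (-0.93 ± 0.09, DESeq2 adjusted p = 3.75e-25) and *SKP2*, an F-box protein, 1.86-fold (-0.89 ± 0.09, DESeq2 adjusted p = 5.02e-22). In the knockout 3 fell, 2 rose and 7 did not pass. *FBXO4* rose 1.58-fold there (0.66 ± 0.11, DESeq2 adjusted p = 2.61e-08) and *FBXO31*, an F-box protein known for cyclin D1 turnover, fell 1.26-fold (-0.33 ± 0.07, DESeq2 adjusted p = 2.38e-05). *CKS2* rose 1.23-fold in the knockout (0.29 ± 0.09, DESeq2 adjusted p = 0.00455). In sgControl cells *FBXO4* rose 1.20-fold (0.26 ± 0.11, DESeq2 adjusted p = 0.0301). *FBXO31* rose 1.35-fold in those cells (0.44 ± 0.07, DESeq2 adjusted p = 6e-10).

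Of 11 cyclins and kinases of transcription 4 rose, 2 fell and 5 did not pass in sgControl cells (median 0.02), and 4 rose, 1 fell and 6 did not pass in the knockout (median 0.08). The background was 49.8% of all genes called in the sgControl response and 30.0% in the knockout response. *CDK9*, the elongation kinase, rose 1.85-fold in sgControl cells (0.89 ± 0.04, DESeq2 adjusted p = 3.34e-86) and *CCNL2* 1.41-fold (0.50 ± 0.07, DESeq2 adjusted p = 6.53e-11). There *CDK9* also rose 1.14-fold in the knockout (0.18 ± 0.05, DESeq2 adjusted p = 0.000521). *CCNT2*, a partner of *CDK9*, rose 1.42-fold in the knockout (0.51 ± 0.11, DESeq2 adjusted p = 1.54e-05) and *CDK19*, a Mediator kinase, 1.36-fold (0.44 ± 0.11, DESeq2 adjusted p = 0.000376). *CCNT2* also rose 1.19-fold in sgControl cells (0.25 ± 0.10, DESeq2 adjusted p = 0.0318). Its responses did not pass as different (0.26 ± 0.15, DESeq2 adjusted p = 0.161). Of 17 other cyclins and kinases 6 rose, 5 fell and 6 did not pass in each of the 2 responses. *CDK18* rose 5.10-fold in sgControl cells (2.35 ± 0.21, DESeq2 adjusted p = 5.19e-28) and 2.54-fold in the knockout (1.34 ± 0.22, DESeq2 adjusted p = 8.36e-09). *CCNJL* rose 4.88-fold in sgControl cells (2.29 ± 0.09, DESeq2 adjusted p = 3.51e-154) and *CCNG2* 1.71-fold in the knockout (0.77 ± 0.08, DESeq2 adjusted p = 1e-18). *CCNG2* also rose 1.43-fold in sgControl cells (0.52 ± 0.08, DESeq2 adjusted p = 5.99e-10). Its responses did not pass as different (0.25 ± 0.12, DESeq2 adjusted p = 0.0668).

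Of 14 genes for regulators of transcription known as inputs to *CCND1*, 9 rose, 4 fell and 1 did not pass in sgControl cells (median 0.45). The 9 include a gene with a mean of only 4.8 normalized counts. In the knockout, in which *CCND1* itself did not pass, 7 rose, 2 fell and 5 did not pass (median 0.18). Of all genes tested, 49.8% were called in the sgControl response and 30.0% in the knockout response. *FOS*, an AP-1 subunit, rose in both, 9.26-fold in sgControl cells (3.21 ± 0.34, DESeq2 adjusted p = 1.2e-20) and 16.5-fold in the knockout (4.04 ± 0.34, DESeq2 adjusted p = 1.72e-30). *FOSL1*, another AP-1 subunit, fell in both, 20.1-fold in sgControl cells (-4.33 ± 0.19, DESeq2 adjusted p = 4.39e-113) and 1.64-fold in the knockout (-0.71 ± 0.11, DESeq2 adjusted p = 3.68e-09). *EGR1*, an early response factor, also rose in both, 5.63-fold in sgControl cells (2.49 ± 0.23, DESeq2 adjusted p = 2.75e-25) and 18.1-fold in the knockout (4.18 ± 0.24, DESeq2 adjusted p = 2.07e-67). The oestrogen receptor gene *ESR1*, which is on this list and among the luminal markers, rose in sgControl cells (log2 fold change 0.59 ± 0.10, DESeq2 adjusted p = 1.08e-08) and fell 1.31-fold in the knockout (-0.39 ± 0.10, DESeq2 adjusted p = 0.000658), and the responses differed by -0.98 ± 0.14 (DESeq2 adjusted p = 2.65e-11). Over the 14 inputs, 8 such differences passed as more positive in the knockout, 5 as less positive and 1 did not pass. Their median was 0.38. Of the 8 luminal markers 4 rose, 3 fell and 1 did not pass in sgControl cells, where *KRT18* fell 1.74-fold (-0.80 ± 0.11, DESeq2 adjusted p = 2.39e-13) and *KRT19* rose 1.51-fold (0.60 ± 0.10, DESeq2 adjusted p = 7.42e-09), and 2 rose, 2 fell and 4 did not pass in the knockout, where *KRT18* rose 1.28-fold (0.36 ± 0.11, DESeq2 adjusted p = 0.00406). *COL1A1*, the one marker of other cell types with a high mean, rose 1.29-fold in sgControl cells (0.37 ± 0.07, DESeq2 adjusted p = 6.72e-08) and 1.35-fold in the knockout (0.43 ± 0.07, DESeq2 adjusted p = 4.19e-09).

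**Figure D4:**
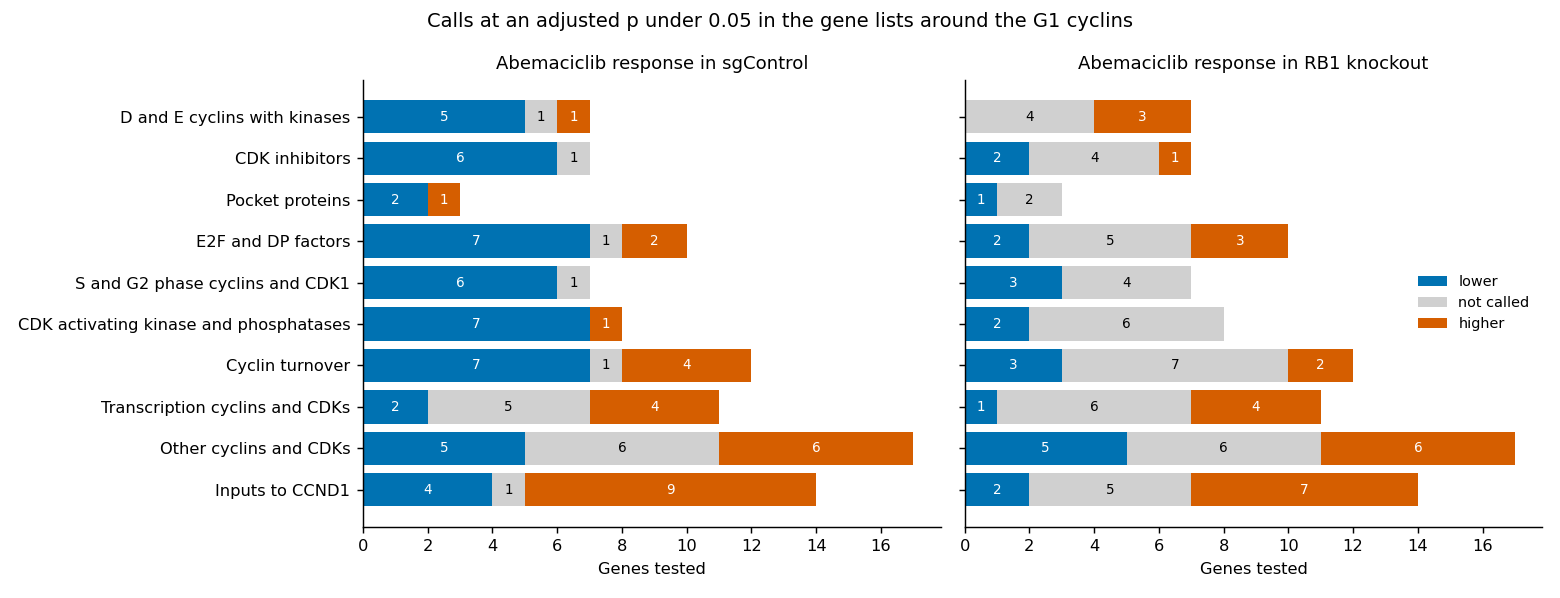
Genes tested in each list around the G1 cyclins, split into those called lower (blue), not called (grey) and higher (orange) at a DESeq2 adjusted p under 0.05, for the response in sgControl cells (left) and in the knockout (right). The CDK inhibitors, the S and G2 phase genes and the activating kinase and phosphatases hold 6, 6 and 7 lower calls on the left against 2, 3 and 2 on the right. Among all genes tested, 24.8% were called lower in the response on the left and 15.1% in that on the right.

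The genes around the members moved in mixed directions. The 2 protein-coding genes that start within 500 kb of *CCND1* and have a mean normalized count of at least 100 both fell in sgControl cells, by log2 fold changes of -1.07 and -0.76, where *CCND1* rose, and both fell in the knockout. Of 8 such neighbours of *CCNE2* 5 fell, 1 rose and 2 did not pass in sgControl cells, from -1.60 to 1.83. Of 30 neighbours of *CDK2* 10 rose, 7 fell and 13 did not pass, with a median of 0.02. Of 18 neighbours of *CDK4* in the knockout 5 rose, 3 fell and 10 did not pass, with a median of 0.04. Among all genes tested, 49.8% were called in the sgControl response and 30.0% in the knockout response.

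Some members share exonic bases with a gene on the other strand. The labels name a directional kit, but the strand setting of the counting is not given in the sources used here. To which gene reads in those bases were assigned, or whether they were counted at all, is therefore not known. The levels per kb of these members, and the shares and ratios built on them, would shift with that. The exons of *CCNE2* share 1629 of 4397 bases with *INTS8*, a subunit gene of the Integrator complex, whose mean normalized count went from 1682.9 to 555.4 in sgControl cells (log2 fold change -1.60, DESeq2 adjusted p = 9.51e-100), and in the knockout from 1769.3 to 1497.6 (-0.24, DESeq2 adjusted p = 0.00397). *INTS8* also supplied the lowest neighbour of *CCNE2* given above. *CDK4* shares 1369 of 3094 bases with *TSPAN31*, whose means were 3212.5 and 3521.9 in sgControl cells (0.13, DESeq2 adjusted p = 0.157) and 2311.2 and 2685.6 in the knockout (0.22, DESeq2 adjusted p = 0.0277). *CCND1* shares 497 of 4761 bases with *LTO1*, which went from 1673.6 to 986.7 in sgControl cells (-0.76, DESeq2 adjusted p = 3.07e-11), the opposite direction to *CCND1*. *CDK2* shares 89 of 3887 bases with *PMEL*, which had at most 115 counts in a library. The annotated pseudogenes of the members held at most 3 counts in a library.

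The genes whose log2 normalized counts followed a member most closely over the 12 libraries were taken from 11874 genes with a mean of at least 100. The 12 libraries form 4 groups, so each correlation mainly states that the 4 group levels were spaced alike, and it is given without a p-value. *CCNE2* was followed most closely by *GTSE1* (Pearson r = 0.9986), *WDR76* (0.9986) and *NEURL1B* (0.9985), and *CDK2* by *USP1* (0.9966), *OXCT1* (0.9955) and *PRR11* (0.9942). *CCNE1* went with *MGAT5B* (0.9978), *NRP1* (0.9964) and *SDC1* (0.9956), and *CCND1* with *CYP4B1* (0.9973), *ZNF552* (0.9966) and *EHHADH* (0.9954). *CCND3* went with *ACTG1* (0.9969), *SF3B4* (0.9921) and *SLC3A2* (0.9919), *CDK6* with *ASAP1* (0.9883), *ITPRIPL2* (0.9869) and *TRERF1* (0.9835), and *CDK4* with *NTAN1* (0.9742), *RAB32* (0.9741) and *PSMB10* (0.9739). No member was among the 3 genes closest to another member. Within the set *CCNE2* and *CDK2* were the most alike (0.99), and *CCND1* ran against each of the other 6, from -0.68 with *CDK4* to -0.99 with *CCNE2*.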

How the data were processed

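RNA-seq of 12 ZR-75-1 libraries was analysed. The authors trimmed reads with BBDuk, aligned them to hg38 with STAR 2.7.5b and counted them per gene with featureCounts 2.0.1 against GENCODE release 35, and deposited whole-number counts for 60656 rows, of which 44 named NA held no counts and were left out. Strand setting and treatment of multi-mapping reads are not given in the sources used here. The labels name a directional kit, while the study's methods describe a 3′ kit.

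Counts were fitted as deposited with DESeq2 1.42.0 in R 4.3.3 (group as the single term, all 12 libraries, median-of-ratios scaling, two-sided Wald tests, no shrinkage), following the study's methods, with Benjamini-Hochberg adjustment over all genes left by independent filtering and a threshold of 0.05. Normalized counts are counts divided by these size factors. The scripts were tested on simulated data. Alternatives were edgeR 4.0.16 quasi-likelihood tests, TMM and total-count scaling, a minimum of 10 counts in 3 libraries, no independent filtering, a replicate block, the 2 compared groups alone and leaving out each library. Deposited replicates differed by more than sampling noise, with a chi-square of at least 3.49 per gene. Depth was 39907318 to 81636393 counts, and intervals at 95% come from the standard errors.

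Same-numbered replicates deviated together (correlations 0.15, 0.26 and 0.11) between the genotypes in abemaciclib only, which meets the rule for pairing set for this work. In each other comparison at least 1 of the 3 correlations was under 0.1.

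Positions and exon lengths are from GENCODE release 44 and promoters from RefSeq, both of the same build. The text names the 8 members, *RB1*, overlapping genes, pseudogenes, the 3 genes closest to each member with a mean of at least 100 normalized counts, and in each other list the 2 largest called changes per response among genes with that mean. The members and lists were chosen with earlier results of these data known. The cyclin to kinase ratios, the E-box and the E2F core were added after the data were seen.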

Additional observations from a re-analysis of the deposited data

Results flagged for a closer look

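A DESeq2 interaction test found that the abemaciclib response was not the same in sgControl and knockout cells for each of the 7 tested members. Given as the log2 response in the knockout minus that in sgControl cells, the differences were 6.27 for *CCNE2* (95% interval 5.84 to 6.69), 1.46 for *CDK2* (1.28 to 1.65), 1.26 for *CCNE1* (1.07 to 1.45), 1.21 for *CDK6* (0.65 to 1.78), 0.51 for *CDK4* (0.30 to 0.73), 0.32 for *CCND3* (0.10 to 0.53) and -1.24 for *CCND1* (-1.39 to -1.09). Of all genes tested for this difference, 41.4% were called. The groups have 3 libraries each, so no single library was tested as standing apart from its group.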

How the results depend on the processing

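Over 658 refits of a member's log2 fold change, 635 kept the direction and the side of the threshold, 7 lost a call, 8 gained one and 8 changed sign. All changes of sign were in values that did not pass the test. *CDK2* between the genotypes in DMSO was -0.01 with TMM and with total-count scaling, and ran from -0.03 to 0.06 with single libraries left out. The knockout response of *CDK6* ran from -0.15 to 0.09. No call of the interaction or of the genotypes in abemaciclib changed, and the counts of all genes called stayed within 1.5 times. The number of members called ran from 2 to 4 in the knockout response and from 4 to 6 between the genotypes in DMSO. With the replicate block no member's call changed in any comparison. Between the genotypes in abemaciclib the replicate numbers met the rule for pairing, although the labels do not state that libraries are paired. There *CCNE2* differed by 6.56 with the block, and 11761 genes were called in place of 12039. Total-count scaling moved the median of all genes by -0.13 in the sgControl response, 0.14 in the interaction and 0.11 between the genotypes in abemaciclib. The *CDK4* response of -0.25 that it called in sgControl cells is -0.12 relative to that shift.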
